A study of Mus musculus with 6 samples.

Results

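The clones described are those whose TCR-β CDR3 carries a hydrophobic residue at both position 6 and position 7. CDR3 is the loop of the T cell receptor that is put together from V, D and J gene segments. Members were chosen by sequence alone, from all 6 libraries of the series: coding clones, with neither a stop codon nor a frameshift, of 12 to 16 residues, whose residues 6 and 7 (the start cysteine is 1) are both phenylalanine, isoleucine, leucine, methionine, valine, tryptophan or tyrosine. Clones with the same CDR3 bases and the same V and J gene were taken as 1 clonotype. Of 316095 distinct coding clonotypes, 295582 had 12 to 16 residues and 2324 of these were members, 23 of which were found in the kidneys and 2314 in the spleens. Clonotypes of 12 to 16 residues that were not members are called the others.

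The series asked about clonal expansion of CD4+ T cells in a mouse model of fibrosis-memory. All 3 C57BL/6 wildtype mice had the same treatment, and untreated or sham-operated mice were not analysed here. The right ureter was clipped from day 0 to day 6 (reversible unilateral ureteral obstruction, RUUO) and the left ureter was ligated on day 17 (UUO), and left kidney and spleen were taken on day 22. CD4+ T cells of both organs were FACS-sorted, the kidney cells after an additional negative selection step, so that organ and isolation cannot be told apart. TCR-β mRNA was amplified by 5′ RACE with unique molecular identifiers (UMIs), random tags that let PCR copies of a molecule be counted once. The files hold TCR-β sequences only, so CD4 and other markers of the labelled cell type could not be checked.

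The middle of the CDR3-β loop reaches over the peptide that an MHC molecule presents, and its residues make much of the contact with that peptide. Hydrophobic residues at positions 6 and 7 have been linked to self-reactivity of T cells. The V segment usually ends before these positions, so that they are mostly encoded by the D segment and by bases added at random where segments are joined.

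The members with the most molecules show what such loops look like. The clonotypes below are, for each kidney and each spleen, the up to 3 members with the most UMIs (those tied for the last place are left out, which leaves none for the kidney of mouse 1), followed by the 2 members found in all 3 spleens. Each is named by its V gene, its J gene and the one-letter codes of residues 6 and 7. The CDR3 is printed from the start cysteine codon to the last codon, 5′ to 3′, with codons 6 and 7 in capitals.
Trbv5/Trbj2-7 VW: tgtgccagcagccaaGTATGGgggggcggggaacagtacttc
Trbv3/Trbj1-4 VV: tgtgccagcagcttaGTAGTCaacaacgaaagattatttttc
Trbv13-2/Trbj1-3 VY: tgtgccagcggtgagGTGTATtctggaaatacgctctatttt
Trbv1/Trbj2-4 VW: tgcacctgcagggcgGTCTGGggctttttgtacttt
Trbv13-3/Trbj2-3 WL: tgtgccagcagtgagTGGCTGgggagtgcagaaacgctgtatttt
Trbv5/Trbj2-5 VI: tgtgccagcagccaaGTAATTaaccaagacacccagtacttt
Trbv29/Trbj1-5 YY: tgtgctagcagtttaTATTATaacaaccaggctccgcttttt
Trbv13-2/Trbj2-5 VL: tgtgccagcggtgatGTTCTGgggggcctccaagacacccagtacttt
Trbv20/Trbj2-1 VY: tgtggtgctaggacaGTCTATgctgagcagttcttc
Trbv3/Trbj2-5 VW: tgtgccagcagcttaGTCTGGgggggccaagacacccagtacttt

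Trbv5/Trbj2-7 VW was the member with the most UMIs in the kidney of mouse 2, where it held 16 UMIs and ranked 6th of the clonotypes of 12 to 16 residues, and it held 8 UMIs in the spleen of that mouse. Trbv3/Trbj1-4 VV held 5 UMIs in the kidney of mouse 3 and 11 UMIs in its spleen. These were the only members with more than 1 UMI in a kidney, and the other 21 kidney members were single molecules. In the spleen of mouse 1, Trbv13-2/Trbj1-3 VY held 21 UMIs and Trbv1/Trbj2-4 VW held 19. In the spleen of mouse 2, Trbv13-3/Trbj2-3 WL held 21 UMIs and Trbv5/Trbj2-5 VI held 13. Each of these 4 large spleen members was also seen with 1 UMI in the kidney of the same mouse. Trbv29/Trbj1-5 YY held 7 UMIs in the spleen of mouse 3 and 1 in its kidney, whereas Trbv13-2/Trbj2-5 VL held 6 UMIs in that spleen and was not seen in the kidney. Trbv20/Trbj2-1 VY held 1, 3 and 1 UMIs in the spleens of mice 1, 2 and 3, and Trbv3/Trbj2-5 VW held 1, 2 and 1.

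The libraries differed widely in depth. Kidney libraries held 693 to 1248 coding UMIs and 444 to 710 clonotypes of 12 to 16 residues, and spleen libraries held 97735 to 224811 UMIs and 72925 to 131227 such clonotypes. A UMI was read 479 to 908 times on average in the kidney members and 8.42 to 21.4 times in the spleen members, with like numbers for the others. The least-read kidney clonotype of a library had 16 to 27 reads. The exact p-values below compare organs or classes over 3 mice, and 3 libraries against 3 cannot give a p below 0.1, nor 3 pairs a p below 0.25. The p-values for V and J gene use come from a model of clonotype counts over the same 3 mice. They have no such floor and cannot be set beside the exact ones.

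To determine whether these loops differed in frequency between the UUO kidney and the spleen, the share of members among clonotypes of 12 to 16 residues was compared. Members made up a larger share in every kidney than in any spleen. In the kidneys of mice 1, 2 and 3, 8 of 444, 8 of 710 and 7 of 449 clonotypes were members, shares of 1.80%, 1.13% and 1.56%. In the spleens, 787 of 102670, 958 of 131227 and 602 of 72925 were members, shares of 0.767%, 0.730% and 0.826%. The kidneys averaged 1.5% ± 0.342 (SD, n = 3) and the spleens 0.774% ± 0.0482 (SD, n = 3), a difference of 0.722 percentage points (exact two-sided permutation test, p = 0.1, the smallest possible). With the mice as pairs, the exact sign-flip test gave p = 0.25, again the smallest possible.

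The kidney shares rested on few clonotypes. Their exact (Clopper-Pearson) 95% intervals, which cover counting error only, ran from 0.781% to 3.52%, from 0.488% to 2.21% and from 0.629% to 3.19% in mice 1, 2 and 3. The spleen shares of mice 2 and 3 lie inside the interval of the kidney of the same mouse, and that of mouse 1 lies just below it. With at least 2 UMIs per clonotype, only 2 kidney members remained and the difference turned to -0.207 percentage points (exact permutation test, p = 0.7). With alanine and cysteine added to the residue set, the shares were 2.57% in the kidney and 2.21% in the spleen (exact permutation test, p = 1).

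The difference was not shown to be particular to positions 6 and 7. Clonotypes with both residues 5 and 6 in the set averaged 3.54% ± 1.51 (SD, n = 3) over the kidneys and 2.88% ± 0.115 (SD, n = 3) over the spleens. For residues 7 and 8, the shares were 1.29% ± 1.08 (SD, n = 3) and 0.920% ± 0.0128 (SD, n = 3). At neither of these pairs was the kidney higher in every mouse. For residues 5 and 6, mouse 2 had 2.11% in the kidney and 2.75% in the spleen. For residues 7 and 8, the kidneys of mice 1, 2 and 3 had 0.676%, 2.54% and 0.668%, and their spleens 0.907%, 0.921% and 0.932%. The kidney excess at positions 6 and 7 was tested against the mean difference at these neighbouring pairs, with p = 1 for residues 5 and 6 and p = 0.8 for residues 7 and 8 (exact permutation tests). Clonotypes with exactly 1 of residues 6 and 7 in the set averaged 23.1% ± 2.40 (SD, n = 3) of the kidney libraries and 22.6% ± 0.447 (SD, n = 3) of the spleen libraries (exact permutation test, p = 0.9).

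Weighted by molecules, members held 8 of 718, 23 of 1168 and 11 of 667 UMIs in the kidneys, which is 1.11%, 1.97% and 1.65%. They held 0.722%, 0.708% and 0.808% of the UMIs in the spleens of mice 1, 2 and 3. Every kidney again lay above every spleen, with a difference of 0.832 percentage points (exact permutation test, p = 0.1). In the kidney of mouse 2, 16 of the 23 UMIs belonged to Trbv5/Trbj2-7 VW. With the largest member of each library left out, a choice made after seeing the data that can only lower the shares, the kidneys held 0.830% and the spleens 0.734% on average.

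**Figure D1:**
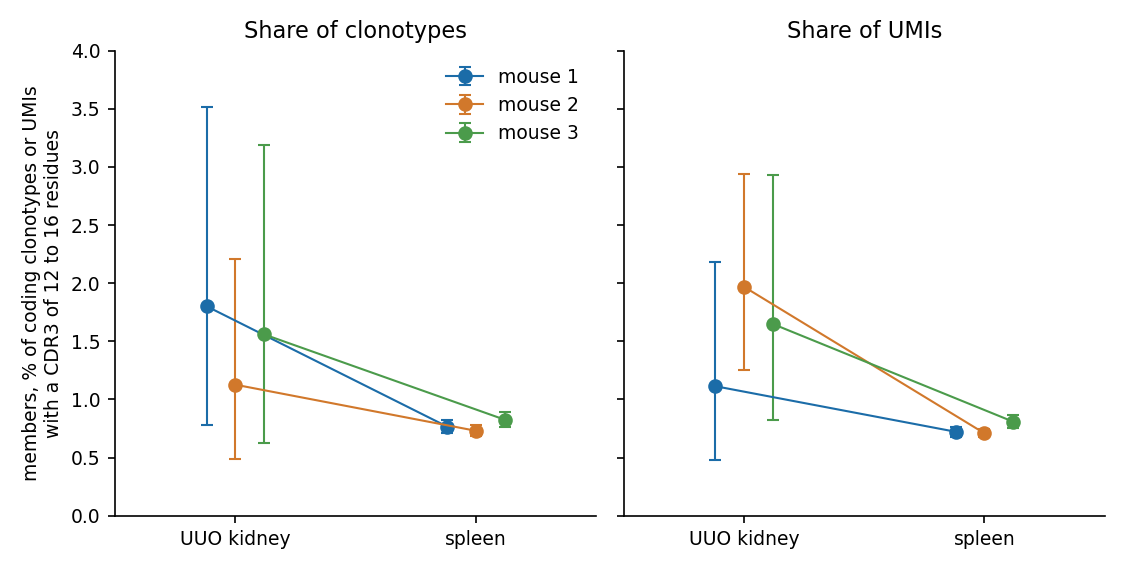
Share of members among coding clonotypes of 12 to 16 residues (left) and among their UMIs (right), in percent, for the UUO kidney and the spleen of each mouse; lines join the organs of a mouse and bars are exact 95% intervals for counting error. All 3 kidneys lie above all 3 spleens in both panels, with wide kidney intervals that reach from 0.488% to 3.52% for clonotypes.

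The members of the spleens were then described by their residues. Valine was the most frequent residue at position 6, in 36.4% ± 1.41 (SD, n = 3) of the members, followed by leucine in 24.5% ± 1.36 (SD, n = 3). At position 7, tryptophan was found in 32.5% ± 0.412 (SD, n = 3) and leucine in 29.9% ± 1.36 (SD, n = 3). Methionine was rare at both positions, with 1.31% and 1.02%. Of the 49 possible pairs, all occurred in at least 1 spleen and 38 in all 3 spleens.

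The 5 most frequent pairs held 49.7% to 51.6% of the members of a spleen. Valine-leucine was found in 13.1% ± 1.41 (SD, n = 3) of the members and valine-tryptophan in 12.8% ± 0.993 (SD, n = 3), the pair of Trbv5/Trbj2-7 VW, Trbv1/Trbj2-4 VW and Trbv3/Trbj2-5 VW. Tyrosine-tryptophan followed with 9.47% ± 1.52 (SD, n = 3), leucine-leucine with 8.77% ± 0.905 (SD, n = 3) and tryptophan-valine with 6.28% ± 0.462 (SD, n = 3). The 23 kidney members held 17 of the 49 pairs, and 11 of them had tryptophan at position 6 or 7.

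The residues around the pair differed between members and others in the same direction in all 3 spleens. The rule did not name these residues, but a D segment can encode them together with the pair, so they are not independent of it. Glycine, the small residue typical of D segments, followed at position 8 in 52.1% ± 0.429 (SD, n = 3) of the members and 32.7% ± 0.304 (SD, n = 3) of the others. A further hydrophobic residue at position 8 was found in 6.22% ± 0.367 (SD, n = 3) of the members and 11.3% ± 0.0603 (SD, n = 3) of the others. On the other side of the pair the order was the opposite. A residue of the set at position 5 was found in 28.9% ± 1.20 (SD, n = 3) of the members and 25.8% ± 0.0570 (SD, n = 3) of the others. At position 5, aspartate preceded the pair in 25.2% ± 1.18 (SD, n = 3) of the members against 14.7% ± 0.517 (SD, n = 3) of the others. Arginine at that position showed the opposite order, with 3.35% ± 0.759 (SD, n = 3) against 6.57% ± 0.0447 (SD, n = 3).

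Members had longer loops. Their share among spleen clonotypes was 0.652% at 12 residues, 0.528% at 13, 0.736% at 14, 0.935% at 15 and 1.37% at 16, with SDs of 0.0102 to 0.112 over the mice. The mean length was 14.2 ± 0.0501 (SD, n = 3) residues in the members and 13.9 ± 0.000705 (SD, n = 3) in the others.

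The origin of the bases differed as well. From the segment borders in the files, members carried 4.11 ± 0.0607 (SD, n = 3) bases assigned to neither V, D nor J, and the others 3.09 ± 0.0228 (SD, n = 3). The share of members was 0.237% ± 0.0373 (SD, n = 3) among spleen clonotypes without such bases and 1.60% ± 0.402 (SD, n = 3) among those with 9 or more. Of the 6 bases of codons 6 and 7, 2.49 were unassigned and 2.22 came from D in the members, against 1.31 and 3.40 in the others. V gave 0.472 of these bases in the members and 0.602 in the others, and J gave 0.819 and 0.688. The rule sets these codons, so the origin of their bases is not independent of it.

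Of the D segments, Trbd2 was assigned to 54.3% ± 1.91 (SD, n = 3) of the spleen members and 25.7% ± 0.572 (SD, n = 3) of the others. Trbd1 was assigned to 3.67% ± 0.323 (SD, n = 3) of the members and 33.4% ± 0.545 (SD, n = 3) of the others. In 36.9% ± 2.08 (SD, n = 3) of the members, no D segment was assigned. Of the 23 kidney members, 9 were assigned Trbd2 and 1 Trbd1, 2 fitted both and 11 had none assigned.

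**Figure D2:**
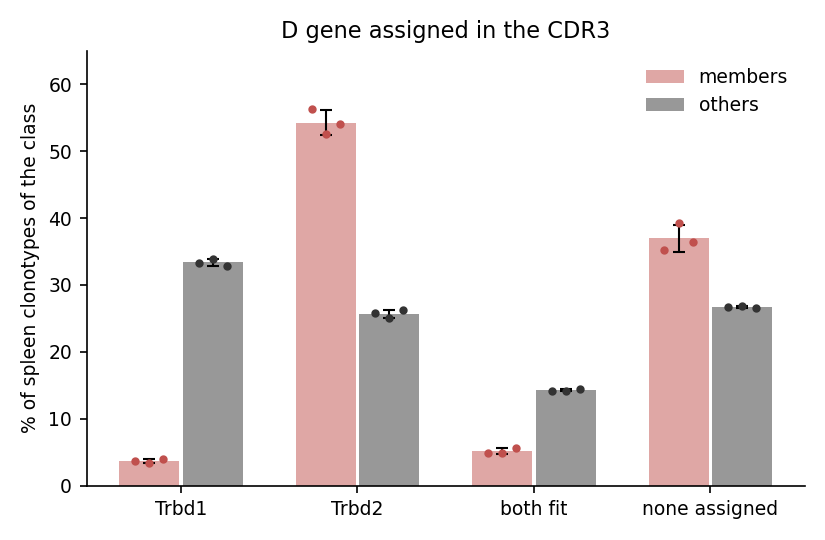
D segment assigned in the CDR3, in percent of the spleen members (red) and of the other spleen clonotypes of 12 to 16 residues (grey); bars are means, whiskers SDs and points the 3 mice. Trbd2 takes 54.3% of the members and 25.7% of the others, and Trbd1 3.67% and 33.4%. D partly encodes the codons that the rule sets, so the contrast is not independent of the rule.

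The use of J segments, which encode the end of the loop, was compared between members and others of the spleens by edgeR's quasi-likelihood test on distinct clonotypes, with the mouse as a block. Of the 12 Trbj genes, 8 passed an adjusted p of 0.05, which is 66.7% of those tested (3 higher, or 25%, and 5 lower, or 41.7%). Both clusters lie on chromosome 6 of GRCm38, from Trbj1-1 at 41533864-41533911 to Trbj2-7 at 41543810-41543856. All 3 genes used more by members belong to the Trbj2 cluster, downstream of Trbd2, and all 5 used less belong to the Trbj1 cluster. Codons 6 and 7, which the rule sets, are partly encoded by D and partly by J itself, so J use is not independent of the rule. Members were 0.0862% of the spleen clonotypes assigned Trbd1 and 1.62% of those assigned Trbd2. How much of the difference in J use goes with the D segment, or with J bases within codons 6 and 7, was not tested.

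Trbj2-1 was used by 17.3%, 18.0% and 16.1% of the members in mice 1, 2 and 3 and by 9.12%, 9.22% and 9.64% of the others. The log2 fold change was 0.89 ± 0.0552 (SE; edgeR adjusted p = 1.28e-13). It was 0.42 with 13 to 15 residues and 0.53 without tyrosine in the set, and passed in both. Trbj2-5 was used by 20.6%, 19.3% and 22.6% of the members and by 13.6%, 13.3% and 13.9% of the others (log2 fold change 0.60 ± 0.0567). Trbj2-7 rose least, with a log2 fold change of 0.15 ± 0.0618 (edgeR adjusted p = 0.0460), and passed in 5 of 10 alternatives (0.33 with 13 to 15 residues and 0.29 without tyrosine).

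Trbj1-1 was used by 2.54%, 2.82% and 3.32% of the members and by 10.2%, 10.3% and 9.83% of the others. Its log2 fold change was -1.83 ± 0.0973 (SE; edgeR adjusted p = 8.60e-15), and each share in the members lay below each share in the others. Trbj1-2, Trbj1-3 and Trbj1-5 followed with -1.60 ± 0.151, -1.33 ± 0.135 and -1.66 ± 0.458. Trbj1-4, at -0.33 ± 0.0844, passed in 3 of 10 alternatives, with -0.01 at 13 to 15 residues and -0.08 without tyrosine, and Trbj1-5 passed in 9. Trbj1-1, Trbj1-2, Trbj1-3, Trbj2-1 and Trbj2-5 passed in all 10.

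V segments encode the start of the loop and the rest of the variable domain. Of 24 Trbv genes, 6 passed, which is 25% of those tested (2 higher, or 8.33%, and 4 lower, or 16.7%). On chromosome 6 of GRCm38, Trbv4 lies at 41059443-41059886, Trbv3 at 41048394-41048824 and Trbv15 at 41141211-41141658. Trbv4 was used by 6.35%, 6.37% and 6.64% of the members in mice 1, 2 and 3 and by 4.56%, 4.61% and 4.43% of the others, a log2 fold change of 0.50 ± 0.0988 (SE; edgeR adjusted p = 0.0133). Without tyrosine in the residue set, the log2 fold change of Trbv4 was 0.015 (edgeR adjusted p = 0.925), with UMIs in place of clonotypes it was 0.32, and it passed in 5 of 10 alternatives. Trbv3 was used by 11.7%, 8.56% and 11.6% of the members and by 8.34%, 7.56% and 7.61% of the others (0.41 ± 0.0956).

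Trbv15 fell most, used by 1.40%, 1.57% and 1.33% of the members and by 3.26%, 3.11% and 3.53% of the others. Its log2 fold change was -1.17 ± 0.184 (SE; edgeR adjusted p = 0.00628), and 34 spleen members used it. Trbv2 (-0.91 ± 0.231, and -0.50 without mouse 2), Trbv19 (-0.40 ± 0.113) and Trbv31 (-0.34 ± 0.0995) were also lower. V segments can reach into codon 6, so V use is not independent of the rule. V reached codon 6 in 2.78% of Trbv4 and 29.8% of Trbv3 spleen clonotypes. For Trbv15, Trbv2, Trbv19 and Trbv31 it was 18.2%, 60.5%, 15.5% and 6.04%. Residue 6 was in the set in 12.7%, 9.49%, 8.51%, 6.59%, 12.6% and 10.0% of these genes' clonotypes, in the same order. How much of the difference in V use goes with this was not tested. DESeq2 called 1 Trbv gene, Trbv15, and edgeR called 0 without mouse 1 or mouse 3 (3 genes at an unadjusted p under 0.05 in each case). The folds stayed about as large in these fits, with -1.15 and -1.09 for Trbv15 and 0.52 and 0.47 for Trbv4 without mouse 1 and mouse 3, and 0.51 for Trbv4 with DESeq2. In the kidneys, where members were too few for a test, 4 of 23 used Trbv1, 3 each used Trbv5 and Trbv13-2, and 1 used Trbv15.

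**Figure D3:**
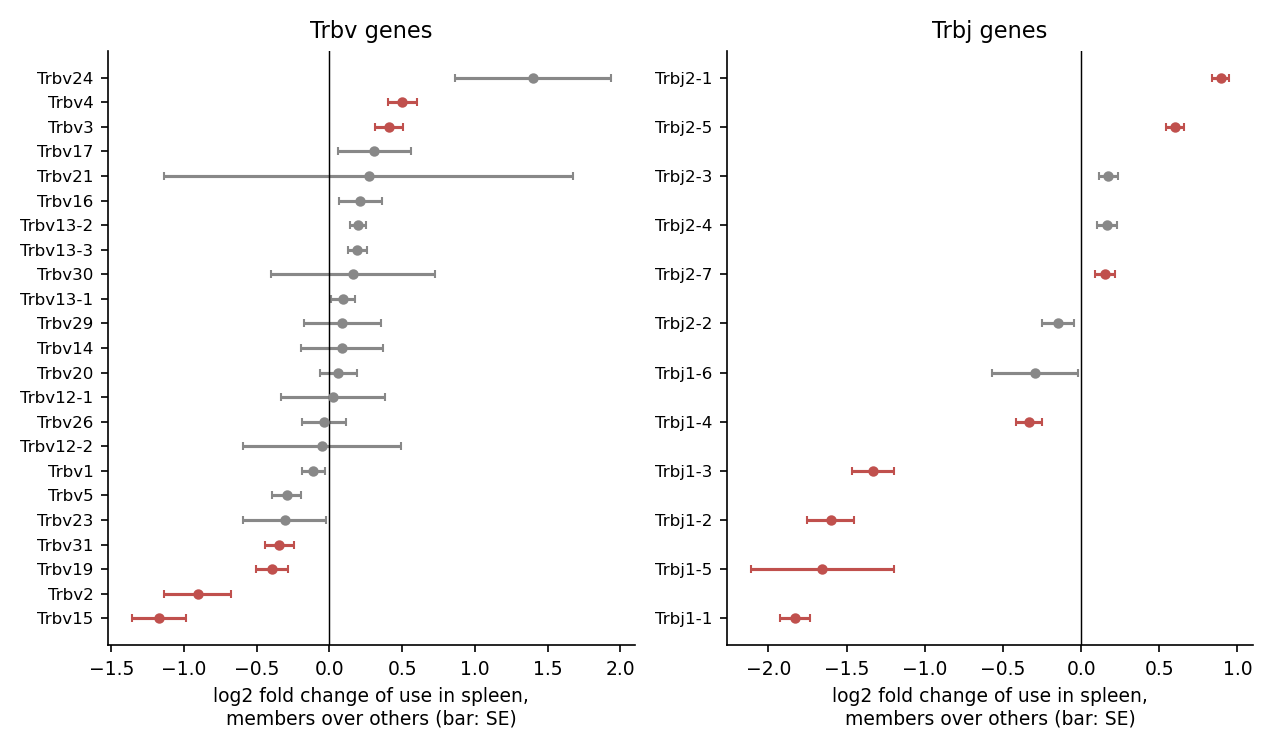
Use of Trbv (left) and Trbj (right) genes in spleen members over the other spleen clonotypes of 12 to 16 residues, as log2 fold change with SE from edgeR, genes with no member left out; red marks an adjusted p under 0.05. Trbj2-1 lies highest at 0.89 and Trbj1-1 lowest at -1.83, and of the Trbv genes called Trbv4 lies at 0.50 and Trbv15 at -1.17.

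Rearrangements that are out of frame make no protein, and were read by the same rule as a comparison for the coding ones. Such clonotypes had a CDR3 of 34 to 50 bases, not a multiple of 3, and codons 6 and 7 were read from the start cysteine. Those with a stop codon at codon 6 or 7 were left out. Both codons encoded residues of the set in 134 of 6401, 167 of 8626 and 84 of 3860 out-of-frame clonotypes of the spleens of mice 1, 2 and 3. These shares of 2.09%, 1.94% and 2.18% were above the 0.767%, 0.730% and 0.826% of the coding clonotypes in every mouse. The log2 ratio of coding to out-of-frame was -1.42 ± 0.0273 (SD, n = 3; exact two-sided sign-flip test, p = 0.25). Some out-of-frame clonotypes, 591, 981 and 262 in mice 1, 2 and 3, lay 1 inserted or deleted base from a coding clonotype of that spleen. Whether these were sequencing errors was not tested. Without them, a choice made after seeing the data, the ratio kept its direction.

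Out-of-frame J segments can be read in another frame within codons 6 and 7. Among clonotypes whose J segment starts after codon 7, a restriction chosen after seeing the data, the shares were 0.706% and 1.23%, a log2 ratio of -0.80 (exact sign-flip test, p = 0.25). In-frame clonotypes with a stop codon were a smaller second comparison, with 208, 241 and 127 clonotypes. Both codons encoded residues of the set in 0.481%, 2.07% and 1.57% of them in mice 1, 2 and 3. Against them the log2 ratio was -0.59 and not of the same sign in every mouse (exact sign-flip test, p = 0.5).

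The lower share in coding clonotypes was also seen at the neighbouring positions. The log2 ratio was -0.91 for codons 5 and 6 and -1.79 for codons 7 and 8. With the J segment after codon 7, the ratios were -0.86 and -0.68. Among coding spleen clonotypes, residue 6 was in the set in 10.9% ± 0.282 (SD, n = 3) and residue 7 in 13.3% ± 0.255 (SD, n = 3). If both were independent, 1.45% of clonotypes would be members, and the observed share was 0.534 ± 0.0160 (SD, n = 3) of that. In the kidneys, this ratio was 1.18, 0.602 and 0.968 in mice 1, 2 and 3, with 7 or 8 members each. In out-of-frame spleen clonotypes, the ratio at codons 6 and 7 averaged 0.976. With the J segment after codon 7, it was 0.492 in coding and 0.721 in out-of-frame spleen clonotypes. For all coding spleen clonotypes it was 1.02 at residues 5 and 6 and 0.619 at residues 7 and 8.

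**Figure D4:**
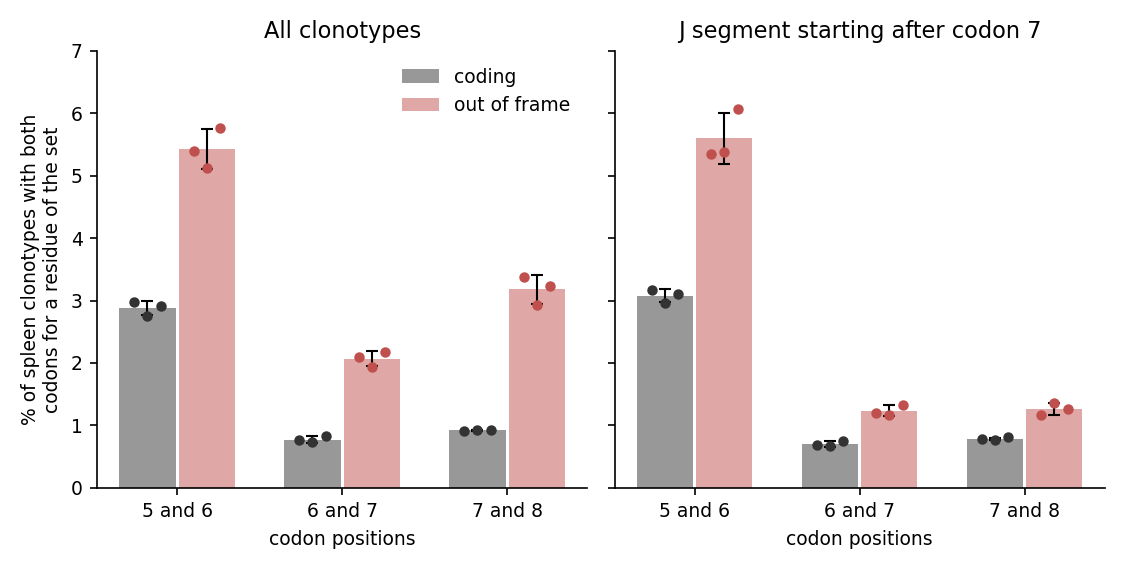
Percent of coding (grey) and out-of-frame (red) spleen clonotypes in which both codons of a neighbouring pair encode a residue of the set, for all clonotypes (left) and for those whose J segment starts after codon 7 (right); bars are means, whiskers SDs and points the 3 mice. Out-of-frame clonotypes lie higher at all 3 pairs, at codons 6 and 7 with 2.07% against 0.774% (left) and 1.23% against 0.706% (right).

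Clone sizes of members in the spleen were slightly below those of the others. A member had on average 1.37, 1.55 and 1.22 UMIs in mice 1, 2 and 3, and one of the others had 1.46, 1.60 and 1.25. The log2 ratio was -0.05 ± 0.0293 (SD, n = 3), lower in 3 of 3 mice (exact sign-flip test, p = 0.25). The share of members was 0.793% ± 0.0529 (SD, n = 3) among spleen clonotypes with 1 UMI, 0.753% ± 0.0325 (SD, n = 3) with 2 and 0.607% ± 0.0421 (SD, n = 3) with 3 to 9. Among those with 10 or more UMIs it was 1.03% ± 0.618 (SD, n = 3), from 5 members in all.

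In the kidney, a member had on average 1.00, 2.88 and 1.57 UMIs in mice 1, 2 and 3, and one of the others 1.63, 1.63 and 1.48. The mean log2 ratio was 0.07 ± 0.761 (SD, n = 3; exact sign-flip test, p = 0.75). This value rested on Trbv5/Trbj2-7 VW, since without mouse 2 it was -0.31. The share with more than 1 UMI was 8.93% ± 7.78 (SD, n = 3) in the kidney members, 15.9 percentage points below the others.

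To see how far these loops recur between animals, the spleen of each mouse was searched for clonotypes found in the spleen of at least 1 other mouse. Members recurred in 3.18%, 2.09% and 3.16% of cases in mice 1, 2 and 3, and the others in 7.64%, 6.54% and 8.81%. The log2 ratio was -1.47 ± 0.192 (SD, n = 3), lower in 3 of 3 mice (exact sign-flip test, p = 0.25). The share fell with the number of residues 6 and 7 in the set, from 8.12% ± 1.24 (SD, n = 3) with none over 6.14% ± 0.822 (SD, n = 3) with 1 to 2.81% ± 0.623 (SD, n = 3) with both, an order seen in each mouse. Of the 2314 spleen members, 2283 were found in 1 spleen, 29 in 2 and 2 in all 3.

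Clonotypes with more unassigned bases recurred less, and members had more of them. Without unassigned bases, members recurred in 15.3% ± 3.04 (SD, n = 3) and the others in 18.6% ± 2.50 (SD, n = 3). With 3 to 5 bases, the shares were 1.27% ± 0.285 (SD, n = 3) and 5.39% ± 0.887 (SD, n = 3). With 6 to 8 bases, 0 of 510 members recurred, which allows a share of up to 0.588%, against 1.59% ± 0.261 (SD, n = 3) of the others. With the others weighted to the members' numbers of unassigned bases, the log2 ratio was -1.01, and with weights for V gene, J gene and length it was -1.26 (exact sign-flip test, p = 0.25 in both).

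Compared by amino acid sequence with V and J gene, more recurred. Then 7.80% of the members and 21.7% of the others were found in another spleen, a log2 ratio of -1.48, and 10 member sequences were found in all 3 spleens. Among them, a valine-leucine sequence of Trbv5 and Trbj2-5 had 5 nucleotide variants, and a tryptophan-valine sequence of Trbv13-2 and Trbj2-5 and a valine-leucine sequence of Trbv1 and Trbj2-3 had 4 each.

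**Figure D5:**
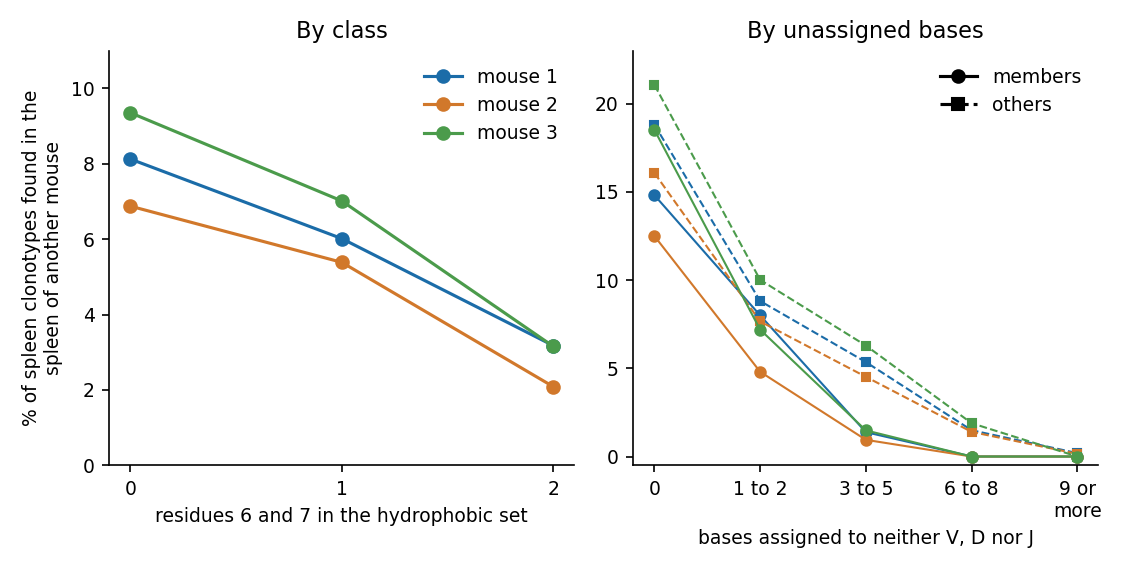
Percent of the spleen clonotypes of a mouse found in the spleen of another mouse, by how many of residues 6 and 7 are in the set (left), and for members (circles) and others (squares) by the bases assigned to neither V, D nor J (right); colours mark the mice. In each mouse the share falls from none to both residues, to 2.81% on average, and 0 of the 510 members with 6 to 8 unassigned bases recurred.

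Recurrence within a mouse was compared next. Of the kidney members, 4 of 8, 4 of 8 and 5 of 7 also occurred in their own mouse's spleen, and of the other kidney clonotypes 48.4%, 51.1% and 43.0%. The difference of 9.64 percentage points ± 16.3 (SD, n = 3) was smaller than its spread (exact sign-flip test, p = 0.5), and turned to -5.74 when the others were weighted to the members' V gene, J gene and length. None of the 23 kidney members was found in the spleen of another mouse, which allows a share of up to 13%, and none was found in a second kidney. Of the other classes, 10.3% ± 1.24 (SD, n = 3) of the kidney clonotypes with neither residue in the set and 9.93% ± 1.83 (SD, n = 3) of those with 1 were found in such a spleen.

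Seen from the spleen, members were found in the kidney of the same mouse more often than the others in each of the 3 mice. They were found in 0.508%, 0.418% and 0.831% of cases in mice 1, 2 and 3, against 0.207%, 0.276% and 0.263%, or 13 of 2347 members and 760 of 304475 others in all. The largest clones stood out among them. All 5 spleen members with 10 or more UMIs were seen in the kidney of their mouse. They were Trbv13-2/Trbj1-3 VY and Trbv1/Trbj2-4 VW in mouse 1, Trbv13-3/Trbj2-3 WL and Trbv5/Trbj2-5 VI in mouse 2 and Trbv3/Trbj1-4 VV in mouse 3. The exact 95% interval of this share, which covers counting error only, reaches down to 47.8%. It pools clonotypes of 3 mice, which are not replicates, and sizes within this class were not matched. Of the others of that size, 189 of 665, 24.3% to 35.1% in the 3 mice, were seen there. With 3 to 9 UMIs the counts were 5 of 165 members and 277 of 26179 others, and with 1 UMI 2 of 1726 and 183 of 217677. With 2 UMIs they were 1 of 451 and 111 of 59954, and no member was found in mice 1 and 3, against 0.15% and 0.352% of the others. This comparison by spleen size was chosen after the values were seen and was not tested, and it shares its counts with the kidney shares above.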

How the data were processed

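TCR-β libraries of CD4+ T cells from the UUO kidney and spleen of 3 mice were analysed, 1 per organ and mouse. Clones were called with MiXCR by the authors, who deposited UMI counts and read counts per clone, not normalized. The deposited fractions of UMIs and reads, and the lowest quality score per CDR3, were not used. The submitters' processing notes name R 4.4.2 and GRCm38 (mm10). The number of sorted cells and the filters on clones are not given in the sources used here.

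From the deposited counts, coding clonotypes of 12 to 16 residues were taken and members found by sequence, as described. Unassigned bases were counted from the segment borders in the files. Shares were compared by exact permutation of 3 against 3 libraries, classes within a library by an exact sign-flip test over mice, and Trbv and Trbj use by edgeR's quasi-likelihood test on clonotypes (library sizes only, at least 10 clonotypes per gene, Benjamini-Hochberg adjustment over all genes tested). The SE is the log2 fold change divided by the square root of F. Each clonotype was counted once however many UMIs it had, and a cell can give several UMIs. All 24 Trbv and 12 Trbj names matched the GRCm38.p6 annotation, from which coordinates were taken.

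By the labels, libraries of the same number are from 1 mouse, and the mice are the replicates. Over 24 Trbv genes, the deviations of kidney and spleen of the same mouse from the organ means correlated with r = 0.343, 0.385 and 0.309. Genes were named where the adjusted p was under 0.05 (up to 5 per direction and table). The clonotypes named are the up to 3 members with the most UMIs in each library, any in 2 or more kidneys and up to 3 found in all spleens, and the residue pairs are the 5 most frequent. Clonotypes compared by amino acid sequence, residues and D segments were named after their values were seen. The members and lists were chosen with earlier results of these data known. The tools were edgeR 4.0.16 and DESeq2 1.42.0 in R 4.3.3, and scipy 1.17.1, pandas 2.3.3, numpy 2.4.6 and matplotlib 3.10.9 in Python 3.11.15. The shares of clonotypes and UMIs, UMIs per clonotype, the depth of the spleens, the exact tests and the edgeR fits were tested on simulated data. Recurrence, the out-of-frame comparison, the weighting of the others and DESeq2 were not among the steps tested so. Alternatives changed the residue set, the lengths, the clonotype definition, the minimum of UMIs or reads, the weighting of the others, the depth of the spleens, the mice included, and the normalization and tool for gene use.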

Additional observations from a re-analysis of the deposited data

How the results depend on the processing

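The share of members among clonotypes, higher in the kidney by 0.722 percentage points, kept its direction in 14 of 15 alternatives and was -0.207 with at least 2 UMIs per clonotype, where 2 kidney members were left. The share of UMIs kept its direction in 14 of 14. With the mice as a replicate block, both values were the same, 0.722 and 0.832, with p = 0.25 in the exact sign-flip test. UMIs per kidney member turned from a log2 ratio of 0.07 to -15.9 percentage points as the share with more than 1 UMI. With the largest member of each library left out, chosen after seeing the data, it was -0.66 by construction, since every remaining kidney member had 1 UMI and the others were not trimmed. The share of kidney clonotypes in the spleen of the same mouse turned from 9.64 to -5.74 percentage points with the others weighted to V gene, J gene and length, to -0.41 without tyrosine in the set and to -1.39 with alanine and cysteine added. UMIs per spleen member, recurrence in other spleens and the coding against out-of-frame ratio kept their direction in all 10, 9 and 12 alternatives that gave a value. The 6 calls for Trbv were 1 with DESeq2, 2 with UMIs in place of clonotypes and 2 without tyrosine. Without the replicate block, 5 Trbv and 8 Trbj genes were called.

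With each mouse left out in turn, the kidney excess ranged from 0.565 to 0.884 percentage points of clonotypes and from 0.617 to 1.05 of UMIs. The log2 ratio of UMIs ranged from -0.07 to -0.04 for spleen members and from -0.31 to 0.45 for kidney members. Recurrence ranged from -2.04 to -1.09, the out-of-frame ratio from -1.43 to -1.40 and the share in the same-mouse spleen from 0.233 to 15.0. Trbv calls ranged from 0 to 7 (0 without mouse 1 or mouse 3) and Trbj calls from 5 to 7 (5 without mouse 2). For recurrence, no log2 ratio could be had under 2 settings. With at least 2 UMIs, 0.515%, 0% and 1.02% of the members recurred against 6.55%, 4.48% and 9.16% of the others, and with at least 27 reads 0% in all spleens against 5.48%, 8.5% and 3.29%. With at least 2 UMIs, the kidney of mouse 1 held no member. The causes of the other changes were not tested. Kidney values rest on 7 or 8 members per library.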
